A study of Rattus norvegicus with 144 samples.

Results

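Liver RNA of rats given AMG A at 30 mg/kg was compared with liver RNA of control rats (0 mg/kg) on day 4 of dosing. The members were chosen by the group named in the sample titles. They are 8 arrays, 4 from 30 mg/kg animals and 4 from controls, of the 144 in the series. All were livers of male Sprague Dawley rats, 8 to 10 weeks old, dosed by mouth every day. The series followed AMG A and AMG B, antiangiogenic compounds known only by their code names, in liver, adrenal gland and pancreas over 3 days of sampling. Set beside these 8 arrays are 4 livers of AMG A at 3 mg/kg on day 4, the 30 mg/kg and control livers of days 1 and 14, and day 4 livers of AMG B at 60 mg/kg with their own controls. The sources used here do not give the time of day of tissue collection.

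The values are scores. Each probe set, a group of short probes read as 1 signal, was standardised by the authors over all arrays to a mean near 0 and a standard deviation near 1. A difference of 1 is therefore about 1 standard deviation of that probe set across the whole series, with its 3 tissues and 2 array tables, and cannot be read as a fold or as RNA abundance. The 2 tables were offset from each other: the median score over the probe sets in both was -0.769 to -0.749 in 30 mg/kg livers and -0.766 to -0.729 in controls, against 0.051 to 0.109 in livers of the AMG B table. That offset enters each probe set's standard deviation, so levels are not comparable between tables. Of several probe sets of a gene, 1 stood for it, which gave 10411 genes. A gene was called changed where limma's moderated test, with Benjamini-Hochberg adjustment over all genes tested, gave an adjusted p under 0.05. The labels give each array as a separate animal. In whole liver, fewer cells of a type and less RNA per cell cannot be told apart.

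The marker scores went with the labelled tissue. The mean score of 24 hepatocyte genes lay between 1.01 and 1.09 in 30 mg/kg livers and between 1.08 and 1.11 in controls, against -1.02 to -0.952 in adrenal and -0.990 to -0.917 in pancreas. The mean of 18 pancreatic acinar genes lay between -0.413 and -0.367 in 30 mg/kg livers and between -0.399 and -0.389 in controls, against 1.42 to 2.96 in pancreas. The adrenal and pancreas arrays are of the other table. In that table, AMG B livers lay between 0.650 and 1.25 for the hepatocyte genes and between -0.419 and -0.324 for the acinar genes. The probe set standing for a gene was the one whose variance lay most between tissues there, which favours such a separation. No array stood apart, since correlations between animals were 0.745 to 0.785 among 30 mg/kg livers, 0.763 to 0.803 among controls and 0.708 to 0.784 between the groups.

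The liver clears foreign chemicals with cytochrome P450 enzymes. Several of them, Cyp1a2 among them, are induced when a ligand binds the aryl hydrocarbon receptor, a transcription factor that then pairs with ARNT and binds DNA. Angiogenesis inhibitors of many kinds act on the signalling of vascular endothelial growth factor (VEGF) through its receptors Flt1, Kdr and Flt4 on endothelial cells, which line the blood vessels and sinusoids of the liver.

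After 4 days at 30 mg/kg, 4 genes were called, 0.0384% of the genes tested. Cyp1a2, Wdr59 and Frmd8 rose (0.0288%), and Chac1 fell (0.00961%). At an unadjusted p under 0.05 there were 1063 genes, 10.2% of those tested, of which 558 (5.36%) were higher and 505 (4.85%) lower at 30 mg/kg. In 611 genes (5.87%) the 2 groups of animals did not overlap, with 317 (3.04%) higher and 294 (2.82%) lower at 30 mg/kg. Each of the 4 called genes was measured by 1 probe set. The count of 4 depended on single animals and on the fit: it was 1 without control 3008, 2 without control 3005 or animal 3030 or 3032, 9 without control 3007, and 13 with only the 8 arrays compared, of which Cyp1a2 alone was among the 4.

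Cyp1a2 encodes a hepatocyte P450 that oxidises caffeine and aromatic amines and is a textbook target of the aryl hydrocarbon receptor. Its scores were 1.27, 1.45, 1.29 and 1.58 in 30 mg/kg animals and 0.276, 0.405, 0.350 and 0.527 in controls. The lowest 30 mg/kg animal stood well above the highest control. The means were 1.40 ± 0.14 at 30 mg/kg and 0.39 ± 0.11 in controls (SD, n = 4 each), a difference of 1.01 (SE 0.107, 95% interval 0.79 to 1.23, limma adjusted p = 2.86e-06). The call held when any 1 of the 8 animals was left out, with adjusted p between 7.68e-06 and 5.09e-05.

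Chac1 encodes a cytosolic enzyme that cleaves glutathione, and its transcription is induced by ATF4 in the amino acid and unfolded protein stress responses. Its scores were -0.560, -0.531, -0.611 and -0.576 in 30 mg/kg animals and -0.304, -0.045, -0.141 and 0.040 in controls. The 30 mg/kg animals lay close together below every control, and the controls spread more widely. The means were -0.57 ± 0.03 at 30 mg/kg and -0.11 ± 0.15 in controls (SD, n = 4 each), so Chac1 fell by 0.46 in score (SE 0.075, limma adjusted p = 0.00710). The call ended without control 3008 (adjusted p = 0.0938).

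Wdr59 encodes a subunit of GATOR2, the complex that relays amino acid supply to the growth kinase complex mTORC1. It scored -1.54, -0.837, -0.821 and -0.701 in 30 mg/kg animals, against -2.14, -1.79, -1.64 and -2.19 in controls. Animal 3029 was far below the other 30 mg/kg animals and close to the highest control. The means were -0.97 ± 0.38 at 30 mg/kg and -1.94 ± 0.27 in controls (SD, n = 4 each), a difference of 0.97 (SE 0.183, limma adjusted p = 0.0364).

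Frmd8, also called iTAP, encodes a FERM domain protein that binds the iRhom proteins and stabilises the sheddase ADAM17 at the cell surface. It scored -0.371, -0.483, -0.506 and -0.115 in 30 mg/kg animals, against -0.840, -0.939, -0.690 and -0.858 in controls. Every 30 mg/kg animal was above every control, and animal 3032 was the highest by a wide margin. The means were -0.37 ± 0.18 at 30 mg/kg and -0.83 ± 0.10 in controls (SD, n = 4 each), a difference of 0.46 (SE 0.089, limma adjusted p = 0.0364). When 1 animal was left out, the call of Wdr59 held only without control 3007 or animal 3029 (adjusted p up to 0.208 otherwise), and that of Frmd8 only without control 3007 or animal 3031 (up to 0.186 otherwise). When only the 30 mg/kg and control arrays of day 4 were fitted, the calls of Wdr59 (adjusted p = 0.254), Frmd8 (0.254) and Chac1 (0.189) ended, and Cyp1a2 was still called.

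**Figure D1:**
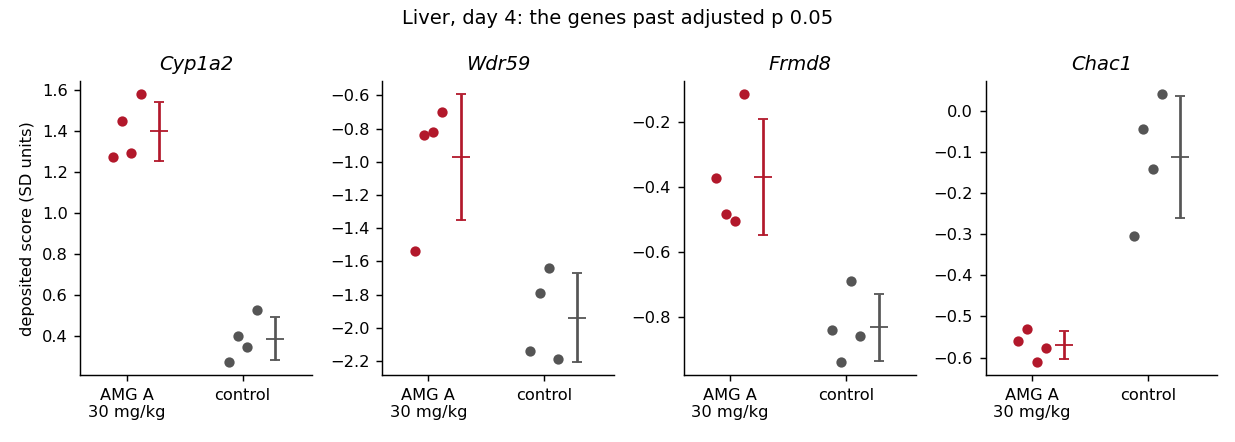
Deposited scores (vertical axes, in standard deviations of each probe set, a separate scale per gene) of the 4 called genes in each day 4 liver, with 30 mg/kg animals on the left and controls on the right of each panel. Points are animals, and bars give the mean ± SD of 4; the groups do not overlap in any panel, and animal 3029 is the low point for Wdr59.

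The promoter windows of Cyp1a2, the called gene with the smallest p, and Chac1, the only gene called lower, show the sequence next to the starts of the 2 genes. Each runs 5′ to 3′ on the gene's own strand from 250 bases before to 50 bases after the RefSeq start (assembly GRCr8), at chr8:66978100-66978399 on the minus strand for Cyp1a2 and at chr3:126795881-126796180 on the plus strand for Chac1. Capitals mark a match to TGATGNAA, a form of the C/EBP-ATF composite element bound by ATF4, which in the Chac1 window lies on the minus strand and begins 167 bases before the start.
Cyp1a2: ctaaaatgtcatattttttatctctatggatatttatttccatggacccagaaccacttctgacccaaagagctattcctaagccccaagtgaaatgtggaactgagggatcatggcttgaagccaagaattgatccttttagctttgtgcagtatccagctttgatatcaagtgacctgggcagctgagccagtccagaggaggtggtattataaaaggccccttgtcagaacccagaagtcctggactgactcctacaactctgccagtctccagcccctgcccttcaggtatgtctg
Chac1: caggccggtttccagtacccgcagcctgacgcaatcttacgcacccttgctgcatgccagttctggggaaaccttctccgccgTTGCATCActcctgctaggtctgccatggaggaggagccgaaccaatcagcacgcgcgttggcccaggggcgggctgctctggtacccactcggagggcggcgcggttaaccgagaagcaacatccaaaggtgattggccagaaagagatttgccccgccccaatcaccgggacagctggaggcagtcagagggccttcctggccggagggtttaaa
Both strands were searched for TGATGNAA and for GCGTG, the core bound by the aryl hydrocarbon receptor with ARNT. Matches to the 2 motifs can share bases at their ends. GCGTG had 0 matches in the Cyp1a2 window and 1 in the Chac1 window, apart from the capitals, and 29.7% of 33469 RefSeq promoter windows of this length hold it. In the windows of the other called genes, not printed, GCGTG had 1 match in each Wdr59 window and 2 in that of Frmd8. TGATGNAA had 0 matches in the Cyp1a2 window and is held by 3.98% of all windows. These matches describe letters in a window and no binding was measured. Sequence beyond the windows was not searched, so 0 matches say nothing about elements farther away.

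At the lower dose on day 4, Cyp1a2 had values between those of the controls and the 30 mg/kg animals. It averaged 0.39 ± 0.11 in controls, 0.67 ± 0.06 at 3 mg/kg and 1.40 ± 0.14 at 30 mg/kg (SD, n = 4 each). At 3 mg/kg the 4 animals lay between 0.616 and 0.748, above every control and below every 30 mg/kg animal. The difference of 3 mg/kg from control was 0.28 (SE 0.107) and was not called (limma adjusted p = 0.541). The difference of 30 from 3 mg/kg was 0.72 (SE 0.107, adjusted p = 0.00213), and Cyp1a2 was the only gene called between the doses, 0.00961% of those tested. Under quantile normalization, or with only the 2 dose groups fitted, that call ended (adjusted p = 0.305 and 0.0979).

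Chac1 at 3 mg/kg scored -0.565, -0.422, -0.544 and -0.637, within or near the range of the 30 mg/kg animals. Its difference of 3 mg/kg from control was -0.43 (SE 0.075, limma adjusted p = 0.0385), and it was the only gene called at 3 mg/kg on day 4, 0.00961% of those tested. The 3 mg/kg call ended under quantile normalization (adjusted p = 0.0689), with each probe set tested (0.0546), on the shifted log2 scale (0.171) and with only the compared groups fitted (0.54). It also ended without control 3006 or 3008 or without animal 3017, 3019 or 3020 of the 3 mg/kg group (adjusted p 0.0803 to 0.310). Both doses were set against the same 4 controls. The difference of 30 from 3 mg/kg was -0.03 with a 95% interval of -0.18 to 0.13.

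Wdr59 averaged -1.94 ± 0.27 in controls, -1.31 ± 0.26 at 3 mg/kg and -0.97 ± 0.38 at 30 mg/kg (SD, n = 4 each), and Frmd8 averaged -0.83 ± 0.10, -0.67 ± 0.07 and -0.37 ± 0.18 in the same order. At 3 mg/kg every Wdr59 value was above every control, and the Frmd8 values overlapped those of controls. The differences of 3 mg/kg from control, 0.63 for Wdr59 (adjusted p = 0.344) and 0.16 for Frmd8 (adjusted p = 0.718), were not called.

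Cyp1a2 was higher at 30 mg/kg on all 3 days, and the size of the difference varied with the day. On day 1 it averaged 2.20 ± 0.12 at 30 mg/kg and 0.32 ± 0.13 in controls, on day 4 the means were 1.40 and 0.39 as above, and on day 14 they were 1.90 ± 0.29 at 30 mg/kg and 0.18 ± 0.10 in controls (SD, n = 4 each). The 30 mg/kg animals of day 4, at 1.27 to 1.58, all lay below those of day 1, at 2.07 to 2.35, and below those of day 14, at 1.65 to 2.19. The effect of 30 mg/kg was 0.88 smaller on day 4 than on day 1 (-0.88, SE 0.151, limma adjusted p = 0.0303), and Cyp1a2 was the only gene called in that contrast, 0.00961% of those tested. This call depended on the fit, with an adjusted p of 0.45 under quantile normalization and 0.544 on a shifted log2 scale, and it ended without control 3006 or 3008, without 30 mg/kg animal 3029, 3030 or 3031, and without any 1 of 5 day 1 animals (adjusted p 0.0501 to 0.139). The effect on day 14 exceeded that on day 4 by 0.71 (SE 0.151), which was not called over all genes (adjusted p = 0.502). Between the effects of days 14 and 4, limma called 0 genes, and 520 (4.99%) had an unadjusted p under 0.05.

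Chac1 differed between days mainly in its controls. Controls averaged -0.36 ± 0.06 on day 1, -0.11 ± 0.15 on day 4 and -0.38 ± 0.13 on day 14 (SD, n = 4 each). The 30 mg/kg livers averaged -0.53 ± 0.07 on day 1, -0.57 ± 0.03 on day 4 and -0.60 ± 0.09 on day 14. The 30 mg/kg means thus stayed within a range of less than 0.1, while 3 of the 4 controls of day 4 lay above every control of the other 2 days. The effect on day 4 differed from that on day 1 by -0.28 (SE 0.106), which was not called (adjusted p = 0.822). Wdr59 controls averaged -1.53 ± 0.26 on day 1, -1.94 ± 0.27 on day 4 and -1.30 ± 0.18 on day 14. The controls of day 4 were thus the lowest. At 30 mg/kg Wdr59 averaged -1.24 ± 0.15, -0.97 ± 0.38 and -0.72 ± 0.17 on these days. Frmd8 controls averaged -0.84 ± 0.04, -0.83 ± 0.10 and -0.76 ± 0.05. Its 30 mg/kg means were -0.55 ± 0.06, -0.37 ± 0.18 and -0.41 ± 0.06 (SD, n = 4 each).

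**Figure D2:**
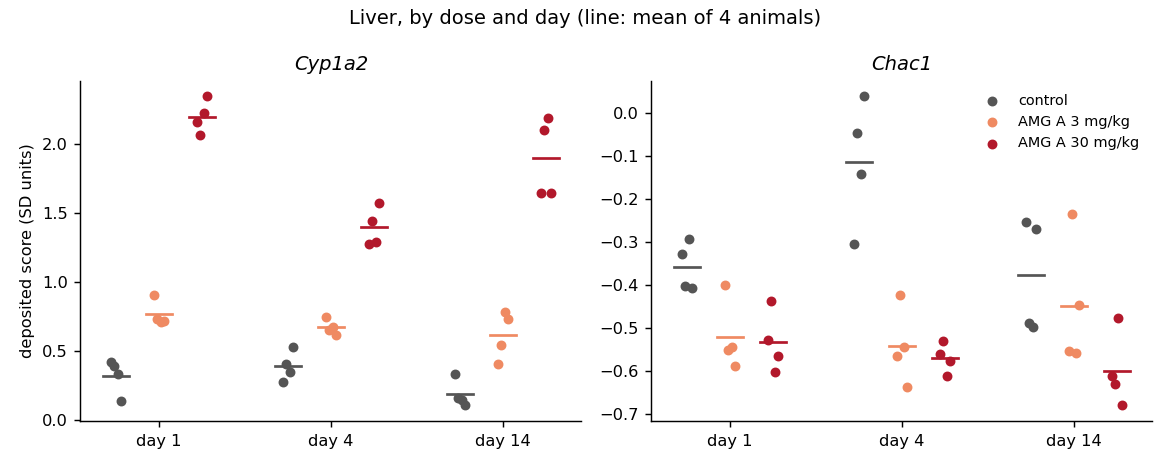
Deposited scores (vertical axes, in standard deviations of each probe set) of Cyp1a2 and Chac1 in single livers on days 1, 4 and 14 at 0, 3 and 30 mg/kg, with lines at the means of 4 animals. Cyp1a2 at 30 mg/kg averages 2.20, 1.40 and 1.90 on the 3 days, and the Chac1 controls of day 4 average -0.11 against -0.36 and -0.38 on days 1 and 14.

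More genes were called at 30 mg/kg on day 1 (36, 0.346% of those tested) and on day 14 (38, 0.365%) than on day 4, each day with its own animals. Such counts do not test a difference between days, and the day 4 count depended on single animals and on the fit. Tested directly by limma, 1 gene was called for day 4 minus day 1 and 0 for day 14 minus day 4. Of the 26 genes higher on day 1 (0.25% of those tested), 25 were also higher on day 4, 14 at an unadjusted p under 0.05, with a median difference of 0.52 on day 1 and 0.25 on day 4. Of the 10 lower on day 1 (0.0961%), all 10 were lower on day 4 and 3 had an unadjusted p under 0.05, with medians of -0.70 and -0.13. These genes were chosen for their day 1 difference, so its larger size is a description.

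Of the 24 genes higher on day 14 (0.231% of those tested), 21 were also higher on day 4 (median difference 0.71 on day 14 and 0.22 on day 4), and 12 of the 14 lower on day 14 (0.134%) were lower on day 4 (-0.81 and -0.29). Across all 10411 genes, 52.7% had a day 4 difference above 0. Moderated t values correlated across genes at 0.350 between days 4 and 1 and 0.368 between days 4 and 14. The days share no animal, but genes are not independent replicates and their values share 1 standardisation.

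Called on both other days were Cyp1a2 and Ifitm10, a member of the interferon-induced transmembrane protein family. Ifitm10 scored -0.426, -0.150, -0.134 and -0.059 in 30 mg/kg animals of day 4, against -0.611, -0.498, -0.597 and -0.443 in controls. The groups did not overlap, and 1 of the 30 mg/kg animals was close to the highest control. Its day 4 difference of 0.34 (SE 0.102) was not called (limma adjusted p = 0.232), against differences of 0.93 on day 1 and 0.48 on day 14. Across the day 1 genes, Ube2m, the NEDD8-conjugating enzyme, had a difference of 0.64 on day 1 and 0.43 on day 4 (adjusted p = 0.109). Ghrhr, the receptor for growth hormone-releasing hormone, had -0.93 on day 1 and -0.30 on day 4 (adjusted p = 0.483). Med27, a subunit of the Mediator of transcription, had -1.36 on day 14 and 0.45 on day 4 (adjusted p = 0.651), the opposite sign.

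**Figure D3:**
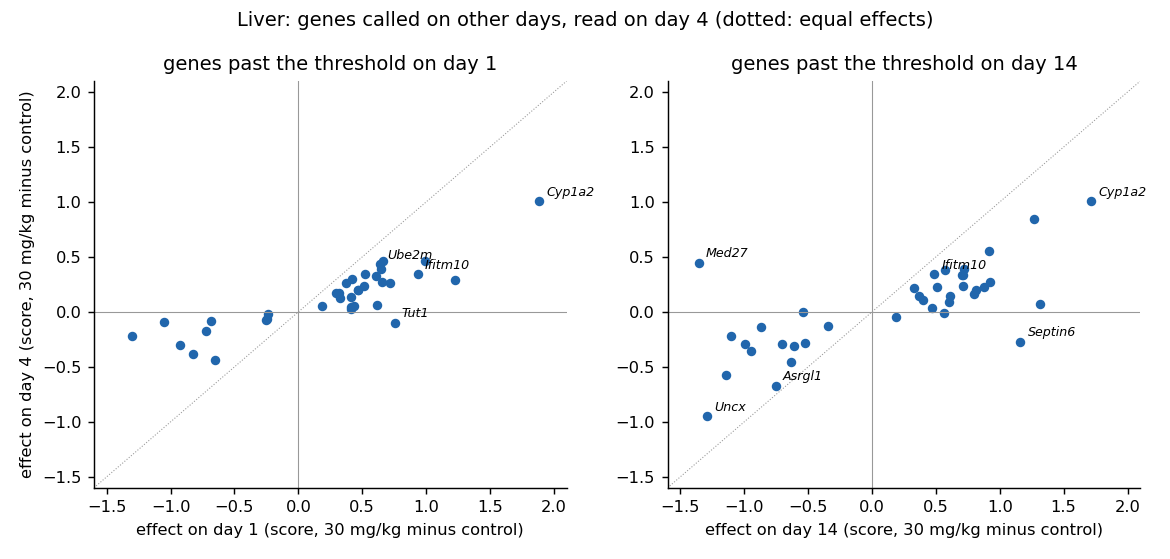
Difference in score between 30 mg/kg and control livers on day 4 (vertical) against that on day 1 or day 14 (horizontal), in standard deviations of each probe set, for the 36 and 38 genes called on those days. Points are genes and the dotted line marks equal effects; most points lie between the horizontal axis and that line, and Med27 lies on the other side of 0.

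Ranked next by moderated t were 12 genes higher and 12 lower at 30 mg/kg whose animals did not overlap and that did not pass the threshold. The 12 higher had differences of 0.29 to 1.69 and adjusted p of 0.109 to 0.156, and the 12 lower had differences of -2.19 to -0.30 and adjusted p of 0.0964 to 0.109. Since they were ranked by this contrast, the lack of overlap is a description. The mean at 3 mg/kg lay between those of 30 mg/kg and control in 11 of the 12 higher and 11 of the 12 lower genes, a count that shares the control animals. Because the genes were picked for the gap between those 2 groups, the mean of another group tends to fall inside it. The count is therefore a description and says nothing about dose.

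Among the higher genes were Rab20, a small GTPase of vesicle traffic, Arpc5, a subunit of the actin-nucleating Arp2/3 complex, and Trappc5, a subunit of the TRAPP tethering complexes of the secretory pathway. Rab20 scored -0.209, -0.148, -0.220 and -0.350 in 30 mg/kg animals and -1.04, -1.03, -0.962 and -1.15 in controls, a difference of 0.81 (SE 0.184, adjusted p = 0.109). Trappc5 scored -0.297, 0.154, -0.081 and 0.469 in 30 mg/kg animals and -1.23, -1.26, -1.30 and -1.14 in controls, a difference of 1.30 (SE 0.296, adjusted p = 0.109). In both genes the controls lay close together and the gap to the 30 mg/kg animals was wide. Plpp3, a lipid phosphate phosphatase that degrades lysophosphatidic acid, scored 0.530, 0.528, 0.684 and 0.455 in 30 mg/kg animals and 0.222, 0.216, -0.094 and 0.040 in controls (difference 0.45, adjusted p = 0.109).

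The remaining higher genes were Kiss1r (the kisspeptin receptor), Ube2m, Lypd8, Dennd10, Plppr3, Pou3f4, Ints13 (a subunit of the Integrator complex) and Smim30l1. Kiss1r and the POU transcription factor Pou3f4 are known mostly from the nervous system. Signal over background is unknown in scores, so whether a dim transcript was detected in liver cannot be read from them.

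Lower at 30 mg/kg was Nppa, the atrial natriuretic peptide, with -0.214, -0.327, -0.379 and -0.376 in 30 mg/kg animals and 0.625, 0.334, 0.458 and 0.603 in controls (difference -0.83, SE 0.175, adjusted p = 0.0964). Cacna1h, a T-type calcium channel, scored -1.06, -1.23, -0.961 and -1.15 in 30 mg/kg animals and -0.417, -0.540, -0.579 and -0.433 in controls (difference -0.61, SE 0.128, adjusted p = 0.0964). Both genes had well separated groups and the smallest p among those not called.

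Smad9, a receptor-activated SMAD of bone morphogenetic protein signalling, scored -1.20, -0.748, -0.634 and -1.13 in 30 mg/kg animals and 0.559, 0.460, -0.379 and 0.545 in controls (difference -1.22, adjusted p = 0.109). Control 3007 stood near the 30 mg/kg animals, and without it Smad9 (adjusted p = 0.0419), Klhl6 (0.0231) and Coa5 (0.0419) passed the threshold. With only the compared groups fitted, Rab20 (adjusted p = 0.00959), Trappc5, Cacna1h and Nppa (0.0409 each) passed it, and Cacna1h also did on the shifted log2 scale (0.033). Cdca8, a cell cycle gene outside the 24, also passed with only the compared groups fitted (difference 1.15, limma adjusted p = 0.0409). Rasd2 had the largest difference of the 24, -2.19 (adjusted p = 0.109). The rest of the lower genes were Klhl6, Cdk18, Scn3a (a neuronal sodium channel subunit), Evpl (envoplakin), Ppp6r2, Lrrc4b, Coa5 and Csnk1g1.

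**Figure D4:**
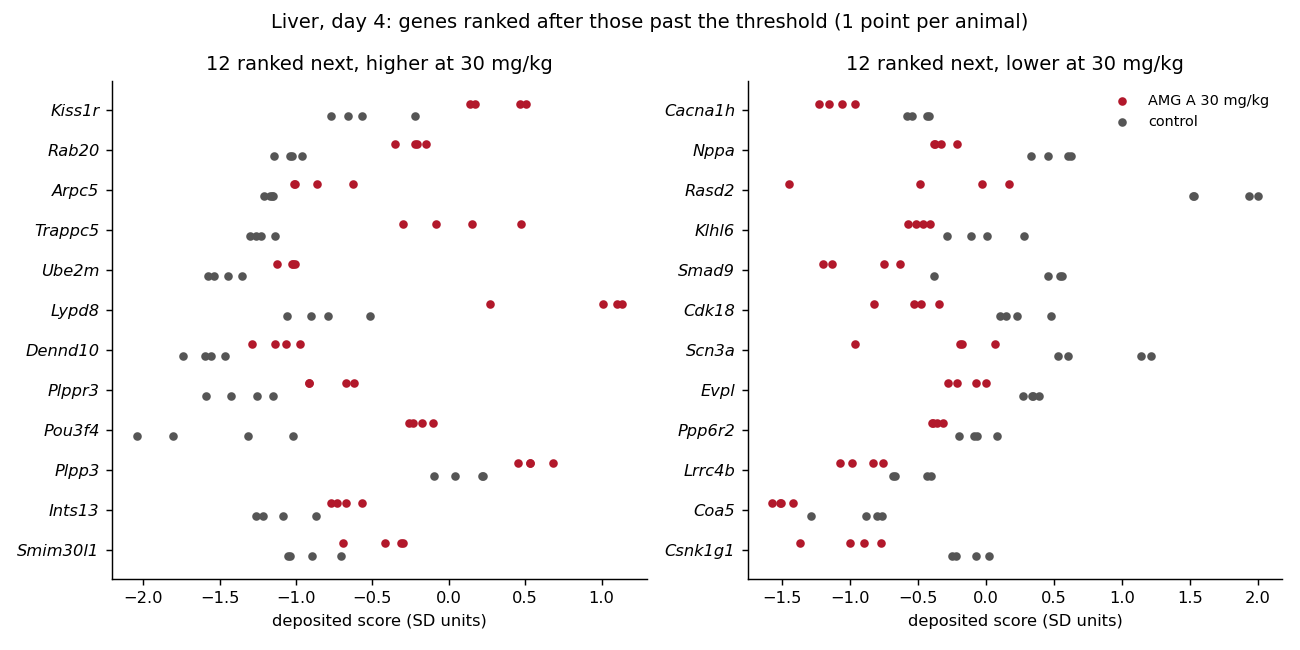
Deposited scores (horizontal axes, in standard deviations of each probe set) of the 12 genes ranked next on the higher side and the 12 on the lower side, with the 30 mg/kg animals drawn above the controls in each row. Points are animals; no gene shown passed the adjusted threshold, and the groups do not overlap because the genes were chosen so.

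Gene lists for liver function, drug metabolism, angiogenesis and cell types held 787 measured genes in 46 lists, 7.56% of the genes tested. The lists were drawn up with earlier results known, and some cover the pathways of the called genes, so it is no finding that all 4 fell in lists, 6 in number. Median differences ran from -0.14 for liver sinusoidal endothelial genes to 0.14 for fatty acid oxidation and PPARA targets, against 0.01 over all genes, whose 5th to 95th percentile ran from -0.46 to 0.39. In 24 lists the median was positive and in 22 negative. With 0.0384% of all genes called, 0 calls in a list do not set that list apart.

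Aryl hydrocarbon receptor targets had 7 measured members, of which Cyp1a2 rose and 0 fell, with a median difference of 0.02. Cyp1a1, a strongly inducible P450 of the same family, scored -0.296, -0.304, -0.263 and -0.251 in 30 mg/kg animals and -0.303, -0.260, -0.291 and -0.281 in controls. The groups overlapped, with a difference of 0.01 (adjusted p = 0.984). On day 1 Cyp1a1 averaged -0.25 ± 0.03 at 30 mg/kg and -0.29 ± 0.02 in controls (SD, n = 4 each, difference 0.04, adjusted p = 0.661). On day 14 it lay between -0.234 and -0.141 at 30 mg/kg and between -0.286 and -0.275 in controls, without overlap (difference 0.08, adjusted p = 0.324). Because scores are scaled by each probe set's spread over the whole series, and Cyp1a1 reached 2.75 in AMG B livers, a small change of Cyp1a1 would be small on this scale. Cyp1b1 (difference -0.01, adjusted p = 0.934) and Tiparp (difference -0.11, adjusted p = 0.776), also targets of the receptor, were not called. Ifitm10, described above, was placed in this list with its earlier results known and had the second largest difference in it, 0.34 (adjusted p = 0.232).

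Other drug-metabolising genes showed no call. Of 25 CYP2, CYP3 and UGT enzymes 0 were called and 10 were higher (median -0.04). Cyp2e1, a pericentral P450 that oxidises ethanol and acetaminophen, scored 1.12, 1.21, 1.22 and 1.10 in 30 mg/kg animals and 1.33, 1.39, 1.28 and 1.30 in controls (difference -0.17, adjusted p = 0.429), without overlap. Of 19 glutathione transferases 0 were called (median -0.04), and of 15 NRF2 genes of the oxidative stress response 0 were called (median 0.05).

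The genes of glutathione synthesis and breakdown had 16 measured members, of which Chac1 fell and 0 rose, with 11 lower and a median of -0.08. Gpx4, which reduces lipid hydroperoxides with glutathione, scored -1.02, -0.995, -0.884 and -0.875 in 30 mg/kg animals and -0.658, -0.740, -0.772 and -0.786 in controls (difference -0.20, adjusted p = 0.166). The groups did not overlap. Glrx, glutaredoxin, had the opposite sign with -0.22 ± 0.29 at 30 mg/kg and -0.61 ± 0.15 in controls (SD, n = 4 each, adjusted p = 0.445).

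Among 32 measured genes of the ATF4 amino acid stress response, Chac1 fell and 0 rose, and 21 were higher, with a median of 0.01. Ddit3, the stress transcription factor CHOP, averaged -0.57 ± 0.10 at 30 mg/kg and -0.71 ± 0.06 in controls (SD, n = 4 each, difference 0.14, adjusted p = 0.324), opposite in sign to Chac1. Of 22 endoplasmic reticulum chaperones 0 were called and 18 were higher, with a median of 0.07.

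The mTORC1 and GATOR list had 28 measured members, of which Wdr59 rose and 0 fell (median 0.02). By sign, 17 members were higher and 11 lower. Seh1l and Nprl3 were opposite in sign to Wdr59, with differences of -0.14 and -0.17 (limma adjusted p = 0.428 and 0.454). Sesn1, a sestrin that binds GATOR2, scored -0.803, -0.794, -0.601 and -0.776 in 30 mg/kg animals and -0.825, -0.886, -0.893 and -0.996 in controls (difference 0.16, adjusted p = 0.305). Tsc1, an inhibitor of mTORC1, averaged 0.12 ± 0.09 at 30 mg/kg and -0.57 ± 0.56 in controls (SD, n = 4 each, adjusted p = 0.381), with a wide spread among controls. In the list of ERM proteins, iRhoms and the shedding machinery, 9 were measured, Frmd8 rose and 0 fell (median 0.07). Its partner Rhbdf1, which encodes iRhom1, scored -0.425, -0.381, -0.383 and -0.417 in 30 mg/kg animals and -0.505, -0.511, -0.701 and -0.697 in controls (difference 0.20, adjusted p = 0.297), without overlap. Rdx, an ERM gene, had the opposite sign with a difference of -0.23 (limma adjusted p = 0.410). In this list 5 members were higher and 4 lower.

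No member of the angiogenesis lists was called on day 4, when 0.0384% of all genes tested were called. The lack of calls therefore does not set these genes apart. The 10 VEGF ligands and receptors had a median difference of 0.01, with 5 higher and 5 lower. Vegfa, the main ligand, averaged -0.69 ± 0.05 at 30 mg/kg and -0.83 ± 0.10 in controls (SD, n = 4 each, difference 0.14, adjusted p = 0.557). Pgf, placental growth factor and a ligand of Flt1, scored -0.464, -0.866, -0.842 and -0.602 in 30 mg/kg animals and 0.200, -0.124, -0.379 and -0.147 in controls (difference -0.58, adjusted p = 0.484). The Pgf groups did not overlap, and Pgf was not called.

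The VEGF receptors overlapped between the groups. Kdr averaged -0.12 ± 0.19 at 30 mg/kg and -0.07 ± 0.16 in controls, Flt1 averaged -1.19 ± 0.17 and -1.05 ± 0.29 in the same order, and Flt4 averaged -0.77 ± 0.12 and -0.73 ± 0.05 (SD, n = 4 each, adjusted p = 0.963, 0.811 and 0.871). Of 21 endothelial markers 0 were called and 11 were higher (median 0.01). Sox17, an endothelial transcription factor, averaged -0.88 ± 0.29 at 30 mg/kg and 0.38 ± 0.78 in controls (SD, n = 4 each, adjusted p = 0.294), and the groups overlapped. Of 20 VEGF-responsive and tip-cell genes 15 were lower (median -0.08), and of 8 sinusoidal endothelial genes 6 were lower. Among them Dnase1l3, a secreted nuclease, averaged 0.60 ± 0.14 at 30 mg/kg and 0.89 ± 0.30 in controls, and Col4a2, a basement membrane collagen, averaged -1.14 ± 0.16 and -0.91 ± 0.12 in the same order (SD, n = 4 each, adjusted p = 0.483 and 0.329). The 5 higher VEGF-responsive and tip-cell genes included Col4a1, also a basement membrane collagen (difference 0.05, limma adjusted p = 0.876).

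Clock genes had the second highest list median, 0.13, with 13 of 17 higher and 0 called. Bmal1, the activator of the clock, scored -0.598, -0.284, -0.248 and -0.626 in 30 mg/kg animals and 0.214, 0.253, 0.387 and -0.119 in controls (difference -0.62, adjusted p = 0.285). Nr1d1, the repressor of Bmal1 transcription, scored -0.408, -0.806, -0.645 and -0.835 in 30 mg/kg animals and -0.970, -1.07, -1.02 and -0.940 in controls (difference 0.33, adjusted p = 0.291). Neither gene's groups overlapped, and the signs were opposite. Csnk1d, a clock kinase (difference 0.32, adjusted p = 0.238), and Cry2, a clock repressor (difference 0.41, adjusted p = 0.464), also had no overlap. Thus 3 clock genes were higher and 1 lower without overlap, and 5.87% of all genes tested had none. The clock genes Dbp and Nr1d2 overlapped between the groups, with differences of 0.07 and -0.02 (limma adjusted p = 0.768 and 0.959). Nr1d1 was called on day 1 (difference 0.61, limma adjusted p = 0.00884).

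Lipid and bile acid genes had 0 calls on day 4. In the list of fatty acid oxidation and PPARA targets 21 of 29 were higher, though Acaa2, a mitochondrial thiolase, averaged 0.40 ± 0.40 at 30 mg/kg and 0.97 ± 0.15 in controls (SD, n = 4 each, adjusted p = 0.393). Scd, the stearoyl-CoA desaturase, scored 0.669, 1.71, 1.81 and 0.536 in 30 mg/kg animals and -0.001, -0.042, -0.297 and 0.790 in controls (difference 1.07, adjusted p = 0.291). Control 3008 lay within the 30 mg/kg range. Baat, which conjugates bile acids to taurine or glycine, averaged 1.07 ± 0.18 at 30 mg/kg and 1.34 ± 0.04 in controls (SD, n = 4 each, adjusted p = 0.401).

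Hepatocyte markers were lower in 18 of 24 (median -0.06), with 0 called. Hpd, an enzyme of tyrosine breakdown, averaged 1.06 ± 0.17 at 30 mg/kg and 1.29 ± 0.05 in controls (SD, n = 4 each, adjusted p = 0.386). Erythroid and blood markers, which report on blood left in the tissue, were lower in 8 of 13 (median -0.05), with list means of -0.253 to 0.163 at 30 mg/kg and -0.018 to 0.494 in controls. Slc4a1, the red cell anion exchanger, scored -0.355, -0.995, 0.264 and -0.832 in 30 mg/kg animals and 1.81, 0.029, 0.746 and 0.431 in controls (difference -1.23, adjusted p = 0.192), with 1 of the 30 mg/kg animals above the lowest control. Car1, a red cell carbonic anhydrase, averaged -0.03 ± 0.14 at 30 mg/kg and 0.44 ± 0.47 in controls (SD, n = 4 each, difference -0.47, adjusted p = 0.298), and the groups overlapped. Hbb, a beta globin, scored -0.029, 0.445, 1.28 and 1.32 in 30 mg/kg animals and 2.22, 1.10, 0.971 and 2.03 in controls (adjusted p = 0.492), and the groups overlapped. The other 5 members of this list were higher, among them Sptb and Gata1 (differences 0.54 and 0.22, limma adjusted p = 0.711 and 0.901). Interferon-inducible genes were higher in 20 of 25 (median 0.08) and lymphocyte markers lower in 14 of 18 (median -0.02), with 0 called in each. The part of blood and other cells in the 4 called genes was not tested.

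**Figure D5:**
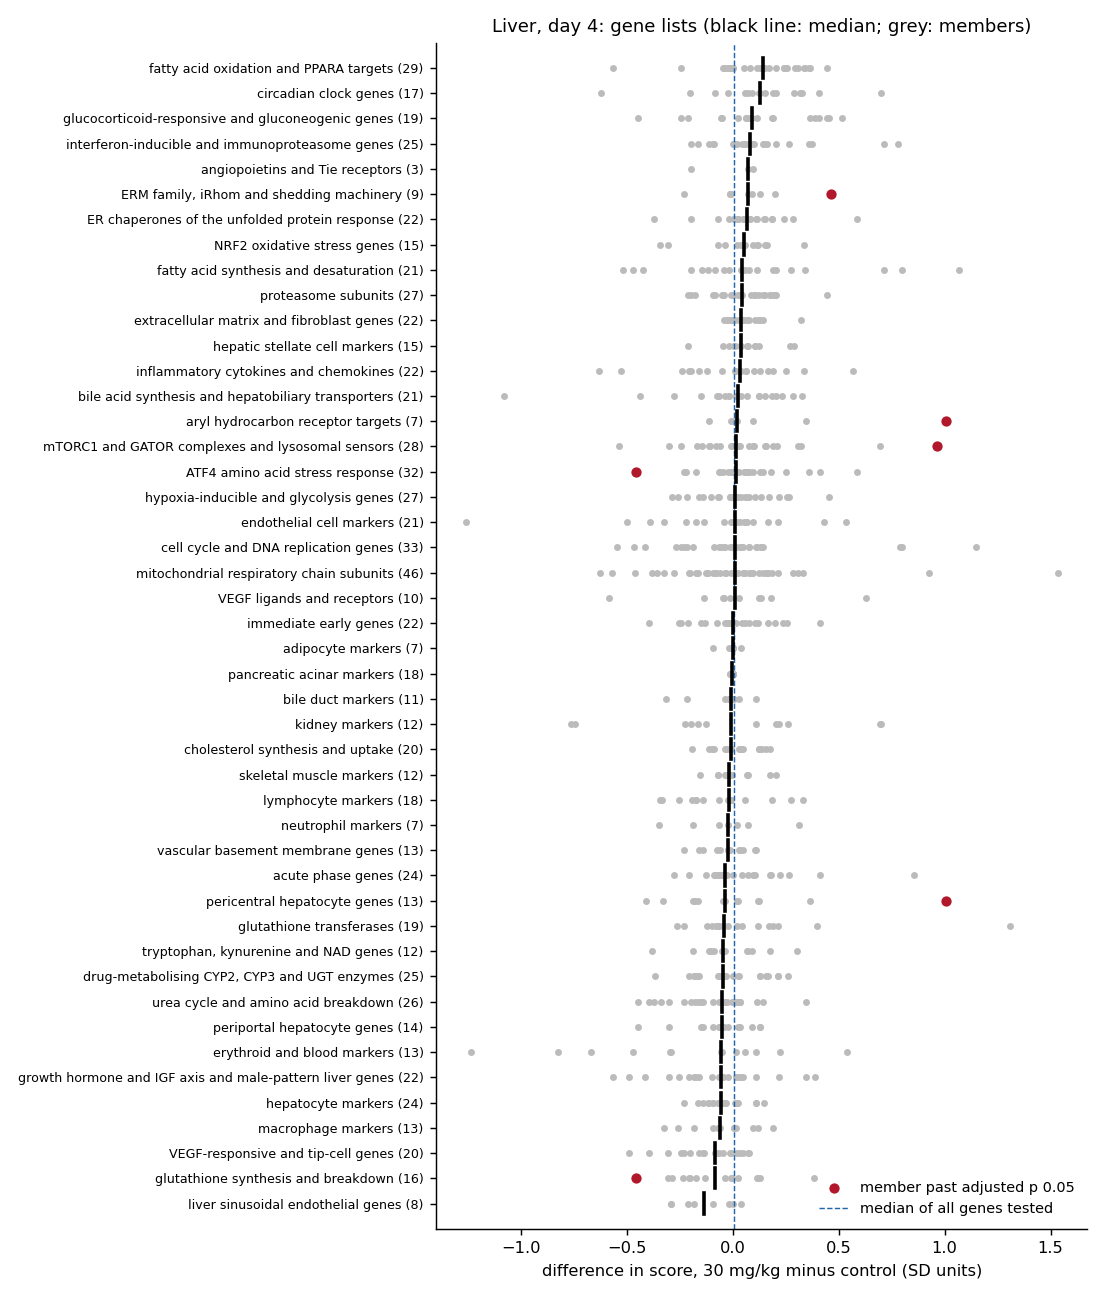
Difference in score between 30 mg/kg and control livers on day 4 (horizontal axis, in standard deviations of each probe set) for the members of each of 46 gene lists, with the number measured in brackets. Grey points are members, red points are members past the adjusted threshold, black lines are list medians and the dashed line is the median of all genes, 0.01; the medians run from -0.14 to 0.14.

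AMG B livers of day 4 came from another array table at a dose of 60 mg/kg, where 120 of 14217 genes were called (0.844%). The values are given side by side and no comparison between the compounds was made, since dose, animals and array table all differ. Of the 10411 genes in both tables, 9499 were read by the same probe set in each, so a gene can be read by different ones. Cyp1a2 averaged 1.23 ± 0.05 at 60 mg/kg AMG B and 0.41 ± 0.08 in AMG B controls (SD, n = 4 each, limma adjusted p = 0.000676), beside its difference of 1.01 under AMG A. Cyp1a1 averaged 2.75 ± 0.41 and -0.30 ± 0.01 in the same order, a difference of 3.05 (adjusted p = 7.51e-08), beside 0.01 under AMG A. Ifitm10 had a difference of 1.47 under AMG B (adjusted p = 6.26e-05), beside 0.34 under AMG A. Chac1, Wdr59 and Frmd8 had differences of -0.03, -0.37 and 0.04 under AMG B (adjusted p = 0.948, 0.824 and 0.939), beside -0.46, 0.97 and 0.46 under AMG A.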

How the data were processed

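Affymetrix arrays came as 2 tables of values, and the liver of the AMG A study was the smaller, with 15866 probe sets on 36 arrays. Per the labels' protocols, RNeasy midi kits gave the RNA, of which 5 ug per sample was labelled with biotin. The authors deposited a score per probe set and array, standardised linearly over all 144 arrays. How signals were summarised, scaled and corrected for background is not given in the sources used here, and precision is limited by the number of arrays. Probe sets were named through the platform annotation, with symbols updated through RefSeq: 12783 had 1 symbol, 312 several and 2771 none. Of a gene's probe sets, the one whose variance lay most between tissues, over the other table's 108 arrays, stood for it.

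A linear model with 9 groups of 4 animals was fitted to the scores in R 4.3.3 by limma 3.58.1, using lmFit, contrasts.fit and eBayes. The eBayes step let the variance follow a trend with the mean score, which is not an intensity. The model had been planned for log2 values and was kept for scores. It had 27 residual degrees of freedom, and two-sided p-values were adjusted within each contrast (Benjamini-Hochberg). The script was tested on simulated data. Python 3.11.15, pandas 2.3.3, numpy 2.4.6, scipy 1.17.1 and matplotlib 3.10.9 did the rest.

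Genes were named by rule: all called genes, the 12 next in each direction without overlap, up to 4 per list by p, those called between doses or days, up to 6 per direction called on other days, and a fixed set of VEGF and P450 genes. Not all are printed. Members and lists were chosen with earlier results of these data known.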

Additional observations from a re-analysis of the deposited data

Results flagged for a closer look

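Of 202 groups of 4 animals examined (named genes and list means), 8 held an animal far from the other animals by Dixon's test. Chance gives about 1 in 20, so this is no more than chance gives. In 30 mg/kg livers all 3 were animal 3029. It scored -1.54 for Wdr59, against -0.837 to -0.701 in the other 30 mg/kg animals. For Ube2m it scored -1.12, against -1.03 to -1.01 in them. For Lypd8 it scored 0.270, against 1.01 to 1.14. All 3 values lay on the side of the controls. These genes were named for being higher at 30 mg/kg in this contrast, so the repeat of 1 animal is a description.

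In controls, animal 3007 scored -0.379 for Smad9, against 0.460 to 0.559 in the other controls, and its mean over skeletal muscle markers was -0.402, against -0.294 to -0.276. Control 3006 had a mean of 0.200 over pericentral hepatocyte genes, against 0.003 to 0.029, and of 0.490 over urea cycle and amino acid genes, against 0.221 to 0.230. Control 3005 had a mean of -0.171 over lymphocyte markers, against -0.266 to -0.261.

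The effect of 30 mg/kg on Cyp1a2 was called different between days, at -0.88 for day 4 minus day 1 (limma adjusted p = 0.0303; 0.45 under quantile normalization, 0.544 on the shifted log2 scale and 0.0501 to 0.139 without any 1 of 10 animals), with means on day 4 of 1.40 at 30 mg/kg and 0.39 in controls.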

How the results depend on the processing

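Cyp1a2 was called in all 8 alternatives to the main setting (adjusted p 1.76e-06 to 0.0267) and in all 8 fits without 1 animal. The day 4 count of 4 genes became 13 with only the compared groups fitted, of which Cyp1a2 was the shared one, and 11 over all probe sets, an alternative chosen after seeing the data, as was the shifted log2 scale. Leaving out an animal gave 1 (control 3008) to 9 genes (control 3007), and 2 without 3005, 3030 or 3032. At 3 mg/kg the count of 1 became 0 under quantile normalization, each probe set tested, only the compared groups and shifted log2, and 0 to 3 without 1 animal (0 without 3008, 3017, 3019 or 3020, 2 without 3006, 3 without 3007). Between 30 and 3 mg/kg it became 0 under quantile normalization and only the compared groups. For day 4 minus day 1 it became 0 under quantile normalization and shifted log2, 2 with the filter on low scores and with array weights, 4 with only the compared groups, and 0 to 2 without 1 animal. For day 14 minus day 4 it was 0 (520 genes at an unadjusted p under 0.05 by limma), and 0 to 1 without 1 animal. Lists with a call were 6, and 2 to 6 without 1 animal. Averaging probe sets reversed Lrrc4b to 0.19 (adjusted p = 0.637) and Mplkip to -0.13 (adjusted p = 0.828), neither called; the cause was not tested. No paired analysis was possible because replicate numbers name single animals and are shared only between tissues of 1 animal. Background correction and slide could not be varied on scores, and signal over background is unknown.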

Other observations

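When all 15866 probe sets of the table were tested, limma called 5 of the 2771 with no symbol and 0 of the 312 with several symbols. Probe set 1390749_at had -0.071, -0.207, -0.012 and 0.081 in 30 mg/kg animals and 1.41, 1.14, 0.909 and 1.23 in controls (difference -1.22, adjusted p = 0.00949), the smallest p among those with no symbol. Probe set 1389986_at had -0.644, -0.613, -0.662 and -0.628 in 30 mg/kg animals and -0.815, -0.815, -0.814 and -0.825 in controls (difference 0.18, adjusted p = 0.0466), with both groups tight.

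Asrgl1, an asparaginase-like enzyme, was called through a probe set that did not stand for the gene, with a mean of 0.87 at 30 mg/kg and -1.02 in controls (difference 1.90, limma adjusted p = 0.0413 over all named probe sets). The probe set that stood for it had a difference of -0.67 (adjusted p = 0.157), so the 2 probe sets disagreed in direction. Asrgl1 was chosen for mention after its values were seen.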
